A study of Mus musculus with 8 samples.

Results

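CC chemokines are small secreted proteins that attract leukocytes through receptors of the G protein-coupled family, and the group examined here holds 6 ligands (*Ccl2*, *Ccl3*, *Ccl4*, *Ccl5*, *Ccl7* and *Ccl12*) and 2 receptors (*Ccr1* and *Ccr2*). The members were all non-control probes whose gene name in the files is one of these 8 symbols, which gave 11 of the 41174 probes on the array, and 8 of its 27962 gene names. *Ccl2* is printed on 10 spots, *Ccl5*, *Ccl7* and *Ccr2* have 2 probes each, and the other 4 genes have 1 probe each. The question was how these transcripts changed in the ischemic hemisphere and how an injection of PACAP38 moved them.

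The mice were C57BL/6J males, of 8 to 12 weeks by the labels, while the methods give a single age within that range. Permanent middle cerebral artery occlusion (PMCAO), in which a filament is left in the artery, or a sham operation was followed by 1 µl of saline or of a solution with 1 pmol PACAP38, a neuropeptide, into the left cerebral ventricle. The right hemisphere, ipsilateral to the occlusion and without olfactory bulb and cerebellum, was taken 6 h or 24 h later. Each of the 8 pools held RNA of 3 mice, and the PMCAO mice had been chosen for a neurological grade of 1 to 2, so other cases were left out. Every animal received an injection, and no pool came from an unoperated or uninjected brain. PACAP38 and saline pools of one surgery and time were hybridized together on 2 arrays with Cy5 and Cy3 exchanged. The 2 arrays measured the same RNA, so each of the 4 comparisons is 1 pair of pools and has no test of its own. A hemisphere mixes infarct core, penumbra and spared tissue, and in such bulk RNA a change in cell number and a change in RNA per cell cannot be told apart.

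In the brain, CC chemokines are made mainly by activated microglia, astrocytes, endothelium and arriving leukocytes. *Ccl2*, *Ccl7* and *Ccl12* encode ligands of the receptor of *Ccr2*, which is known for drawing monocytes out of the blood. *Ccl3* and *Ccl5* encode ligands of the receptor of *Ccr1*. In the mouse the 6 ligand genes lie in clusters on chromosome 11 and the 2 receptor genes on chromosome 9.

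The probes of the 5 ligands whose values vary most across the pools are shown by their first 30 bases, because related chemokines could cross-hybridize. The position of the whole 60-base probe follows the annotation in the files (mouse build mm7), and sequences read 5′ to 3′ on the strand of the transcript.

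*Ccl2*, plus strand, chr11:82118723-82118782: tgtaggagtgaccagtgtgacagtgaacta

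*Ccl7*, plus strand, chr11:82128729-82128788: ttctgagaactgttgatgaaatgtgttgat

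*Ccl12*, plus strand, chr11:82184783-82184842: tccttgaaccttcatgtctaggctgagagt

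*Ccl3*, minus strand, chr11:83717761-83717820: catgaactgacaaatgtacaatagatgctt

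*Ccl4*, plus strand, chr11:83734455-83734514: tattatttatgttttagttataggacgcgt

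Over their full length, no probe shared a run of more than 9 bases with a probe of another member gene. The probes were not compared with the transcripts of other genes, so cross-hybridization was not tested. The second *Ccl7* probe lies at chr11:82128577-82128636, starts with gcatggaagtctgcgctgaagcccatcaga and reads another stretch of that transcript, in the same labeled RNA on the same arrays.

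Promoter sequence was found in the RefSeq table (GRCm38.p6) for 4 of the 8 members, *Ccl3*, *Ccl12*, *Ccr1* and *Ccr2*. *Ccl2*, *Ccl4*, *Ccl5* and *Ccl7* had no entry. The 250 bases before the start of *Ccl3* and of *Ccl12* are printed because the PACAP38 values of these 2 ligands in PMCAO at 24 h lay far apart. The coordinates are GRCm38.p6, and capitals mark a match to TATAAA.

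*Ccl3*, minus strand, chr11:83649379-83649628: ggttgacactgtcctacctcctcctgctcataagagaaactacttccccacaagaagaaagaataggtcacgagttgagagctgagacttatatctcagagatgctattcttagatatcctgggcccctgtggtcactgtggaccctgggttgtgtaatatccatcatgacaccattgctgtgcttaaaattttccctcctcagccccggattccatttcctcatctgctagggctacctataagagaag

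*Ccl12*, plus strand, chr11:82101595-82101844: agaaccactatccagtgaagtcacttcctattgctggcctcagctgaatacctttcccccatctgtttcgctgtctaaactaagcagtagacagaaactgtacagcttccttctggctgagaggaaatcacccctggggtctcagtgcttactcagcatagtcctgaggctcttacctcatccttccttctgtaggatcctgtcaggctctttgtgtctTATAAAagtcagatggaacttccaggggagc

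The *Ccl12* match lies 31 to 26 bases before the start. On either strand, TATAAA was found in 12.4% of the 32851 RefSeq promoter windows of 250 bases. An NF-kB-like motif (3 G, 5 free bases and 2 C, found in 45.8% of windows) and the AP-1-like TGANTCA (in 6.75%) matched neither of the printed windows. A match or its absence describes these letters and says nothing about a factor.

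A channel is called detected here where the software flagged the spot as well above its background, which was so for 62.1% to 66.7% of Cy3 spots and 68.1% to 76.0% of Cy5 spots per array. All 6 h arrays were on 1 slide and all 24 h arrays on another, read by different scanners and software versions, so time cannot be told apart from slide. Sham and PMCAO of one time shared a slide. The array of sham at 6 h with PACAP38 in Cy3 had 10.7% of its spots marked as outliers, against 0.323% to 3.09% on the others. Of the probes for brain cell markers, 13 of 14 neuronal, 10 of 11 astrocyte and 9 of 9 oligodendrocyte probes were detected in every pool.

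Detection of the members differed. *Ccl2*, *Ccl3*, *Ccl4*, *Ccl12* and the brighter *Ccl5* probe were detected in 16 of 16 channels. The brighter *Ccl7* probe was so in 13, the second in 9, the second *Ccl5* probe in 14 and the brighter *Ccr2* probe in 8. *Ccr1* and the second *Ccr2* probe were detected in 0 of 16 channels, and no change in them could be measured on these arrays.

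Ligand signals were higher after PMCAO than after sham, while the receptors were at or near background. *Ccl4* was 12.5-fold to 45.5-fold over sham in the 4 pairs of pools and *Ccl2* 12.9-fold to 51.5-fold, followed by *Ccl7* and *Ccl3*, while the differences were smaller for *Ccl5* and, at 6 h, for *Ccl12*. Levels are given as log2 of the processed signal, normalized by loess on each array and by Aquantile across arrays, as the mean of the 2 channels that hold a pool, and are compared within a probe only.

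In the 4 sham pools, the log2 level of *Ccl2*, the ligand that draws monocytes, was 6.01 with saline and 6.81 with PACAP38 at 6 h, and 7.29 and 6.52 at 24 h. With PMCAO it reached 9.90 (saline) and 10.49 (PACAP38) by 6 h and 12.98 and 11.66 by 24 h. All 4 PMCAO pools lay above all 4 sham pools. PMCAO over sham was therefore 14.9-fold with saline and 12.9-fold with PACAP38 at 6 h, and 51.5-fold and 35.1-fold at 24 h.

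*Ccl4*, a ligand for monocytes, T cells and natural killer cells, had log2 levels of 5.49 (saline) and 5.54 (PACAP38) in sham at 6 h and of 5.77 and 5.72 in sham at 24 h. After PMCAO it read 9.95 and 10.99 at 6 h, and 11.28 and 9.36 at 24 h. The groups did not overlap, and PMCAO over sham was 22.0-fold (saline) and 43.6-fold (PACAP38) at 6 h, and 45.5-fold and 12.5-fold at 24 h.

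*Ccl3*, its neighbour on chromosome 11 with related functions, stood at 6.48 (saline) and 6.72 (PACAP38) in sham at 6 h and at 6.16 and 5.95 in sham at 24 h. The PMCAO pools had 8.85 and 10.16 at 6 h, and 11.22 and 9.11 at 24 h. PMCAO over sham was 5.17-fold and 10.8-fold at 6 h, and 33.3-fold and 8.90-fold at 24 h. The sham values of 6 h rest on a pair of arrays that disagreed, since both channels read 5.53 and 5.55 on one array and 7.43 and 7.89 on the other.

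The brighter probe of *Ccl7*, which encodes another monocyte attractant, read 2.92 (saline) and 4.19 (PACAP38) in sham at 6 h and 4.38 and 4.60 in sham at 24 h. In PMCAO it read 6.48 and 7.40 at 6 h, and 8.92 and 7.99 at 24 h, again with no overlap. The saline sham pool of 6 h was detected on 0 of 2 arrays, so PMCAO was at least 4.69-fold higher there, a limit set against the lowest signal among detected probes. The limits in this paragraph hold only for the background correction of the software. The other 3 pairs gave 9.26-fold (PACAP38, 6 h), 23.3-fold (saline, 24 h, with sham detected on 1 of 2 arrays) and 10.5-fold (PACAP38, 24 h). The second probe had the same direction, with at least 2.50-fold (saline, 6 h), at least 5.92-fold (PACAP38, 6 h), 17.4-fold (saline, 24 h) and at least 7.33-fold (PACAP38, 24 h).

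*Ccl5*, which attracts T cells and monocytes, had a smaller difference. Its brighter probe lay between 6.47 and 7.09 in the sham pools, and at 7.48 (saline) and 7.56 (PACAP38) at 6 h and 9.12 and 8.43 at 24 h after PMCAO. PMCAO over sham was 2.01-fold and 2.05-fold at 6 h, and 4.56-fold and 2.53-fold at 24 h. The second probe gave 5.42-fold and 2.57-fold at 24 h. At 6 h it gave 1.61-fold and 2.61-fold, but the dyes disagreed, with log2 differences of 0.16 and 1.21 (saline) and of 2.48 and 0.28 (PACAP38) in Cy3 and Cy5, and each sham pool was detected on 1 of 2 arrays.

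*Ccl12*, a *Ccr2* ligand of the mouse, differed mainly at 24 h. Sham pools read 6.43 (saline) and 6.57 (PACAP38) at 6 h, and 7.98 and 7.50 at 24 h. PMCAO pools read 7.07 and 7.02 at 6 h, and 10.43 and 10.22 at 24 h. PMCAO over sham was 1.56-fold and 1.37-fold at 6 h, and 5.47-fold and 6.59-fold at 24 h, in which both pools lay far above every other pool.

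Of the receptors, *Ccr1* gave no measurable value. The brighter *Ccr2* probe read 3.04 (saline) and 4.31 (PACAP38) at 6 h and 5.08 and 4.33 at 24 h after PMCAO, within or close to its sham values of 4.59 and 4.10 at 6 h, and 4.41 and 4.01 at 24 h. With saline at 6 h the PMCAO pool was detected on 0 and the sham pool on 1 of 2 arrays. The log2 differences there were -0.19 in Cy3 and -2.92 in Cy5, so no limit is given. PMCAO over sham was 1.58-fold with saline at 24 h, above the threshold in both dyes, where sham was detected on 1 of 2 arrays, and the sham 6 h values came from arrays that read 3.09 and 2.08 on one and 6.09 and 6.11 on the other.

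**Figure D1:**
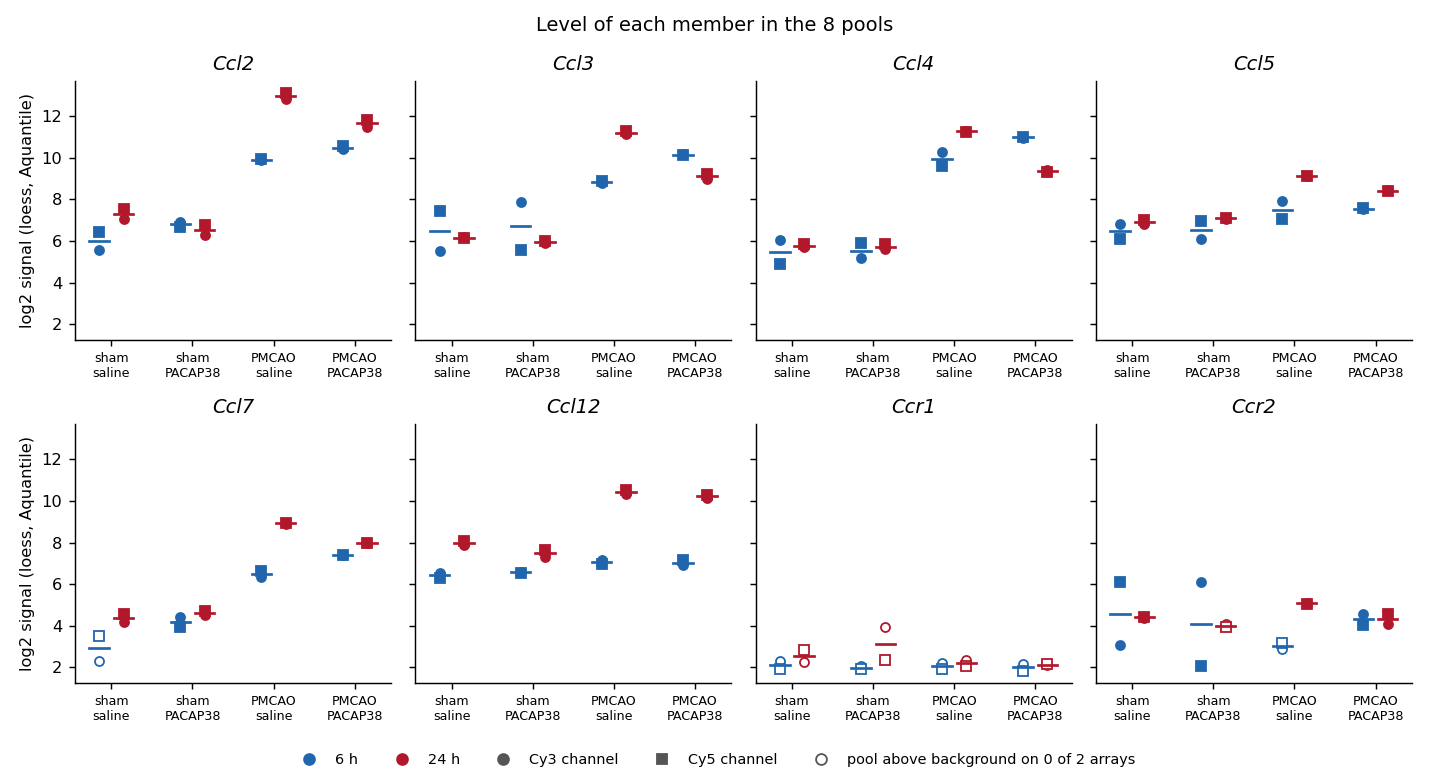
Log2 signal (y axis) of the brightest probe of each member in the sham and PMCAO pools with saline or PACAP38 (x axis), at 6 h (blue) and 24 h (red). Circles are Cy3 and squares Cy5 channels, bars their mean, and open symbols mark pools detected on 0 of 2 arrays. All PMCAO pools lie above all sham pools for *Ccl2*, *Ccl3*, *Ccl4*, *Ccl5* and *Ccl7*, *Ccl12* separates at 24 h, and *Ccr1* stays at background. Levels are not comparable between genes.

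With the study's threshold of above 1.5-fold, 8 of 11 member probes were upregulated by PMCAO with saline at 6 h, where 21.2% of all 40508 probes were. The counts were 7 of 11 with PACAP38 at 6 h (17.6% of all), 9 of 11 with saline at 24 h (8.46%) and 8 of 11 with PACAP38 at 24 h (5.59%). In both dyes they were 7 (8.19% of all), 6 (4.32%), 9 (5.19%) and 8 (2.59%) of 11 in the same order. At 6 h, scaling each channel to its 75th percentile in place of loess turned the balance over all probes, from 8588 higher and 11003 lower to 11936 higher and 8460 lower with saline, and from 7131 and 9631 to 11780 and 6425 with PACAP38. Under that scaling the members numbered 8 and 9 of 11. Above 1.5-fold in all 4 pairs were 7 of 11 member probes, against 1.08% of all probes. Below 0.75-fold were 1 of 11 with saline at 6 h (27.2% of all), the brighter *Ccr2* probe, and 1 of 11 with PACAP38 at 24 h (10.3%), *Ccr1*, neither in both dyes, while 0 of 11 were with PACAP38 at 6 h (23.8%) and with saline at 24 h (14.6%). The median log2 difference over the 11 probes was 1.01 and 1.38 at 6 h, and 2.45 and 2.72 at 24 h, against -0.01 to -0.03 over all probes.

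**Figure D2:**
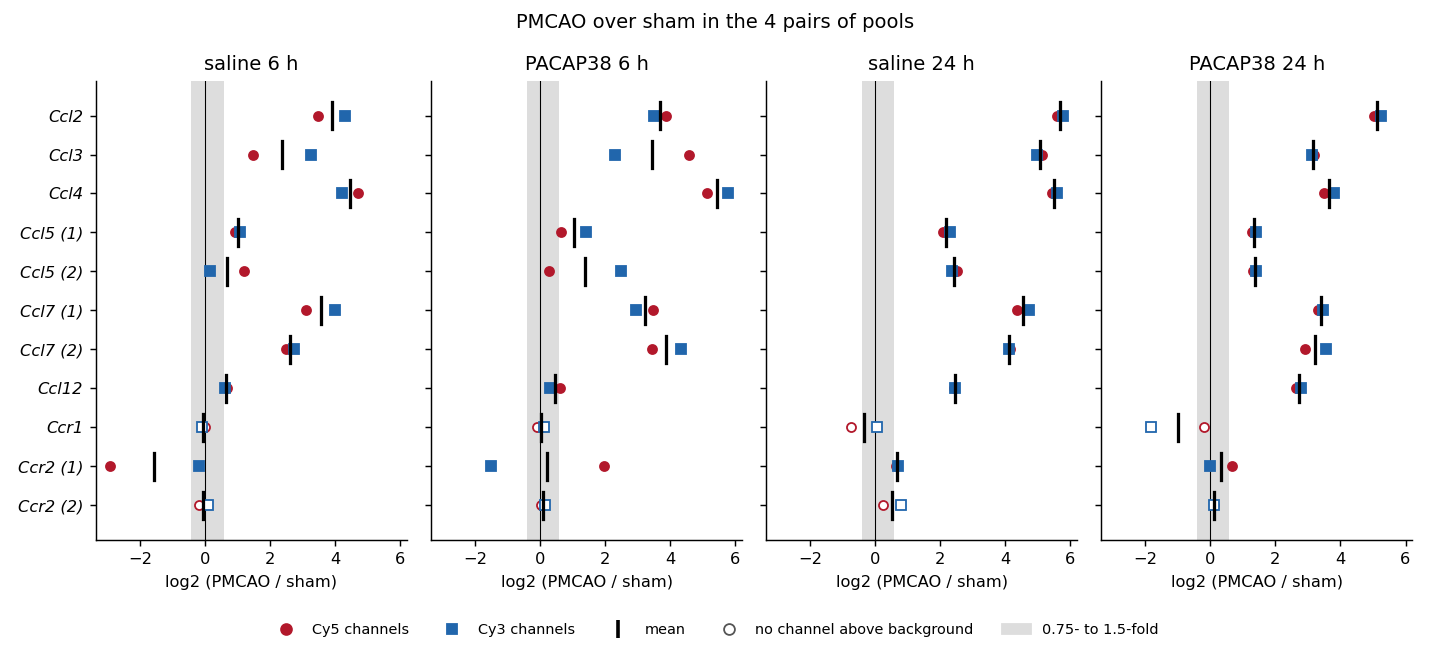
Log2 of PMCAO over sham (x axis) for the 11 member probes (y axis, with 1 for the brighter and 2 for the other probe of a gene) in the 4 pairs of pools. Red circles are Cy5 and blue squares Cy3 channels, black ticks their mean, open symbols probes with no detected channel, and the grey band runs from 0.75-fold to 1.5-fold. *Ccl2* and *Ccl4* lie farthest right in 3 of the 4 panels, and the receptor means lie between -1.55 and 0.66.

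The size of these differences depended on the background correction. After normexp with an offset of 50, which pulls dim signals together, the log2 difference over the 4 pairs ranged from 2.51 to 4.77 for *Ccl2* (3.69 to 5.69 without it), from 2.17 to 3.95 for *Ccl4* (3.64 to 5.51) and from 1.43 to 3.74 for *Ccl3* (2.37 to 5.06). For *Ccl7* it was 0.95 to 2.35 with the brighter probe (3.21 to 4.54) and 0.56 to 1.74 with the second (2.61 to 4.12). All 6 ligands kept a positive difference in all 4 pairs. The lower limits given for *Ccl7* hold only without normexp, after which the differences fell below them.

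Across the 4 pairs of pools, limma put the mean log2 difference at 4.77 for *Ccl4* (SE 0.36), 4.60 for *Ccl2* (SE 0.39), 3.67 and 3.46 for *Ccl7* (SE 0.25 and 0.28) and 3.50 for *Ccl3* (SE 0.45). The *Ccl7* means include pairs in which the sham pool was not detected, 1 of 4 for the brighter and 3 of 4 for the second probe, so they are no measured sizes. For *Ccl12* it was 1.57 (SE 0.47) and for *Ccl5* 1.39 and 1.47 (SE 0.23 and 0.30). With Benjamini-Hochberg adjustment over all probes, 0 probes passed 0.05 in either direction. The smallest adjusted p of limma over all probes was 0.109, which *Ccl2*, *Ccl4* and both *Ccl7* probes had, and those of *Ccl3*, *Ccl5* and *Ccl12* ran from 0.116 to 0.182. Of all probes 3658 were higher and 5153 lower at an unadjusted p under 0.05, which is 9.03% and 12.7%, and 8 of 11 member probes were among the higher. *Ccr1* was at -0.34 (SE 0.20) and *Ccr2* at -0.09 and 0.17 (SE 0.40 and 0.13), with adjusted p of limma from 0.345 to 0.902.

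The PMCAO difference was larger at 24 h than at 6 h for *Ccl12*, by 2.03 on the log2 scale (SE 0.16, limma adjusted p = 0.0177), and for *Ccl2*, by 1.62 (SE 0.24, adjusted p = 0.0273). These were 2 of the 11 member probes, against 9.85% of all probes that passed in this direction and 11.5% in the other (18.5% and 20.9% at an unadjusted p under 0.05). For *Ccl3* the difference between the times was 1.20 (SE 0.79), for *Ccl5* 0.75 and 0.86, for *Ccl7* 0.58 and 0.43 and for *Ccl4* -0.38, and the adjusted p of limma for these ligands lay between 0.182 and 0.749. At 75th percentile scaling, which shifted the median over all probes by -0.20, *Ccl12* was at 1.84 and *Ccl2* at 1.64 and both passed, while the split over all probes moved from 3992 higher and 4677 lower to 3135 and 7354.

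The saline and PACAP38 values of one time were read from the same 4 arrays, so the spread between them is understated. When Cy3 or Cy5 channels were taken alone, so that both values came from separate arrays, *Ccl12* was at 2.16 and 1.91 (limma adjusted p = 0.522 and 0.842), *Ccl2* at 1.60 and 1.64 (adjusted p = 0.522 and 0.842), and 0 probes of the whole array passed, with 1761 higher and 1663 lower at an unadjusted p under 0.05 in Cy3 and 790 and 764 in Cy5. Leaving out 1 pair of pools also ended both calls. For *Ccl12* the adjusted p of limma was then 0.0709 without saline at 6 h, 0.0557 without PACAP38 at 6 h, 0.0887 without saline at 24 h and 0.0861 without PACAP38 at 24 h, and for *Ccl2* 0.1, 0.0996, 0.0953 and 0.0861 in the same order.

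PACAP38 was followed by higher signals of *Ccl2*, *Ccl3*, *Ccl4* and *Ccl7* than saline in PMCAO at 6 h and by lower ones at 24 h. *Ccl5* was lower at 24 h only, and *Ccl12* stayed within the thresholds at both times. In PMCAO at 6 h, 6 of 11 member probes were above 1.5-fold, 5 of them on both arrays, against 5.36% and 1.14% of all probes, and 0 of 11 were below 0.75-fold (6.79% of all, 1.63% on both arrays). At 24 h, 8 of 11 were below 0.75-fold, all 8 on both arrays, against 8.18% and 3.75% of all probes, and 0 of 11 were above 1.5-fold (2.99%, and 0.823% on both arrays). Above 1.5-fold at 6 h and below 0.75-fold at 24 h were 6 of 11, against 0.888% of all 40668 probes with both values. The median log2 ratio over the members was 0.59 at 6 h and -0.73 at 24 h, against 0 over all probes.

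*Ccl3* had the lowest ratio of the members at 24 h and the highest of the ligands at 6 h. Its log2 ratio of PACAP38 over saline in PMCAO was 1.34 on the array with PACAP38 in Cy5 and 1.27 with PACAP38 in Cy3 at 6 h, and -1.92 and -2.23 at 24 h. The mean was 2.47-fold at 6 h and 0.237-fold at 24 h, which placed it as number 94 from the top of 40973 probes and number 73 from the bottom of 41174. *Ccl4* had 0.72 and 1.34 at 6 h, and -1.96 and -1.82 at 24 h, means of 2.05-fold and 0.270-fold. In sham animals *Ccl3* lay between -0.26 and 0.45 and *Ccl4* between -0.24 and 0.26 on the 4 arrays, inside the thresholds. Both arrays of each PMCAO comparison lay outside all sham arrays.

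*Ccl2* had log2 ratios of 0.68 and 0.50 in PMCAO at 6 h, a mean of 1.51-fold that passed the threshold on 1 of 2 arrays. At 24 h it had -1.01 and -1.60, a mean of 0.406-fold. It was the only ligand past the threshold in sham, in the mean, at both times, with 1.14 and 0.46 at 6 h (1.74-fold) and -0.25 and -1.28 at 24 h (0.588-fold), but in each case on 1 of 2 arrays. At 24 h the 10 spots of an array lay close together, with an SD of 0.01 and 0.02 in PMCAO and of 0.06 and 0.09 in sham, and the spots of the 2 arrays did not overlap. At 6 h they did overlap, with spots from 0.50 to 0.82 and from 0.40 to 0.65 in PMCAO, and from 0.43 to 1.94 and from 0.24 to 0.76 in sham. In all 4 comparisons the array with PACAP38 in Cy5 gave the higher ratio for *Ccl2*.

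The brighter *Ccl7* probe had 1.06 and 0.77 in PMCAO at 6 h (1.89-fold), and -0.86 and -0.92 at 24 h (0.541-fold), and the second probe 1.14 and 0.65 (1.86-fold) and -0.85 and -0.97 (0.533-fold). In sham at 6 h the brighter probe read 1.67 and 0.90, but the saline pool was detected on 0 of 2 arrays and the limit that follows is under 1, so no fold is given, and the second probe was not detected in either pool. At 24 h in sham it read 0.52 and -0.09.

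*Ccl5* stayed within the thresholds at 6 h in PMCAO, with -0.32 and 0.48 for the brighter and -0.11 and 0.17 for the second probe, arrays that disagree in sign. At 24 h it was below the threshold on both arrays, with -0.68 and -0.61 (0.638-fold) and -0.77 and -0.69 (0.602-fold). *Ccl12* stayed within the thresholds in PMCAO at both times, at -0.05 and -0.07 (0.960-fold) at 6 h and -0.00 and -0.35 (0.885-fold) at 24 h. It was the only ligand within the thresholds in PMCAO at 24 h, although its PMCAO signal was 5.47-fold and 6.59-fold over sham. In sham at 24 h its ratios were -0.18 and -0.77, a mean of 0.719-fold past the threshold on 1 of 2 arrays.

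Among the receptors, the brighter *Ccr2* probe read 1.33 and 1.38 in PMCAO at 6 h. The saline pool was detected on 0 of 2 arrays, and PACAP38 was at least 1.39-fold higher. At 24 h it read -0.46 and -0.97 (0.609-fold), with PACAP38 detected on 1 of 2 arrays. In sham at 6 h it read -1.19 and 0.00 (0.663-fold, each pool detected on 1 of 2 arrays). *Ccr1* had log2 ratios of exactly 0 on 6 of 8 arrays, the value the software gives when both channels are at its floor, and its 1.53-fold in sham at 24 h comes from signals not well above background.

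**Figure D3:**
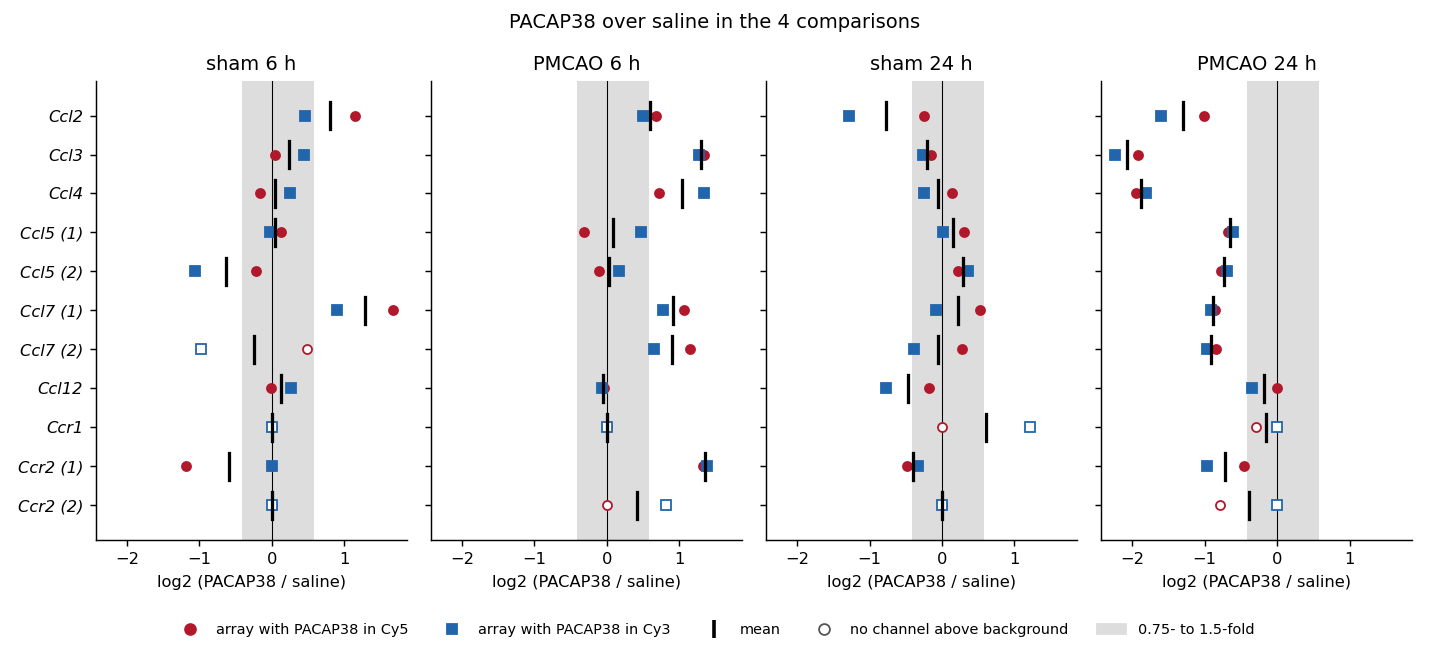
Log2 of PACAP38 over saline (x axis) for the 11 member probes (y axis, named as in the plot of PMCAO over sham) in the 4 comparisons. Red circles are arrays with PACAP38 in Cy5, blue squares arrays with PACAP38 in Cy3, black ticks their mean, open symbols probes with no detected channel, and the grey band 0.75-fold to 1.5-fold. In PMCAO the *Ccl2*, *Ccl3*, *Ccl4* and *Ccl7* symbols lie right of 0 at 6 h and left of it at 24 h, and *Ccl12* stays in the band.

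In sham, 2 of 11 member probes were above 1.5-fold and 2 below 0.75-fold at 6 h (3.65% and 7.19% of all probes), and 1 above and 2 below at 24 h (1.75% and 3.87%). On both arrays this held for 1 above, *Ccl7*, and 0 below at 6 h (0.79% and 1.04% of all) and for 0 of 11 in either direction at 24 h (0.226% and 0.892%). Over all probes, the turned log2 ratios of the 2 arrays of a comparison had a Pearson r of -0.148 (sham 6 h), -0.14 (PMCAO 6 h), -0.417 (sham 24 h) and 0.053 (PMCAO 24 h).

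After the normexp correction, 7 of 11 member probes stayed below 0.75-fold in PMCAO at 24 h, against 2.82% of all probes. At 6 h 2 of 11 stayed above 1.5-fold, against 0.161% of all probes. These were *Ccl3* with a log2 ratio of 0.89 and *Ccl4* with 0.84, whereas *Ccl2* came to 0.47, *Ccl7* to 0.25 and 0.23 and *Ccr2* to 0.07. For *Ccr2* this is below the limit of 1.39-fold given above, which holds only without normexp.

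Over the 4 comparisons the mean PACAP38 effect on the members lay between -0.26 and 0.38 on the log2 scale, and 0 of 40668 probes passed 0.05 after adjustment in limma, with 1222 higher and 815 lower at an unadjusted p under 0.05, none of them a member. The difference between 24 h and 6 h, over sham and PMCAO together, was -1.73 for *Ccl2* (SE 0.25), -1.91 for *Ccl3* (SE 0.91), -1.51 for *Ccl4* (SE 0.88) and -1.44 and -0.81 for *Ccl7* (SE 0.49 and 0.60). In limma 0 probes passed, with 1116 higher and 948 lower (2.74% and 2.33%) at an unadjusted p under 0.05, *Ccl2* among the latter. The adjusted p of limma was 0.886 for these ligands. A larger swing in PMCAO than in sham adds to the spread in this test, and the swing within PMCAO alone, 1 pair of pools at each time, had no test.

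The same PMCAO saline pool of 24 h is the base of PACAP38 over saline and the top of PMCAO over sham at that time, so a single pool of 3 mice enters both the high PMCAO values and the low PACAP38 values. With PACAP38 the PMCAO pool of 24 h still read 35.1-fold (*Ccl2*), 12.5-fold (*Ccl4*), 10.5-fold (*Ccl7*) and 8.90-fold (*Ccl3*) over its own sham pool.

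Markers of several cell types moved with the ligands in PMCAO at 24 h, those of neutrophils most. In PMCAO, 8.18% of all probes were below 0.75-fold with PACAP38 at 24 h (3.75% on both arrays). Above 1.5-fold at 6 h were 5.36%. Of 9 neutrophil probes (8 genes, among them *S100a8* and *S100a9*), 8 were below 0.75-fold with PACAP38 in PMCAO at 24 h, all on both arrays, and their median log2 ratio was -2.91. Their summed signal was 50790 in the PMCAO saline pool and 6044 in the PMCAO PACAP38 pool, against 809 and 1157 in the sham pools of saline and PACAP38. This sum, like those of the other lists, adds signals over probes, so the brightest probes weigh most. *S100a9*, which read 15.44 (saline) against 12.35 (PACAP38) on the log2 scale, made up most of it in these PMCAO pools. *Camp* was detected in 0 pools and *Ngp* in 1, the PMCAO saline pool of 24 h. At 6 h, 4 of 9 neutrophil probes were above 1.5-fold with PACAP38, and the sums were 8256 (saline) and 12460 (PACAP38), against 1698 and 2003 in sham.

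Of 12 monocyte or macrophage probes, 7 were below 0.75-fold with PACAP38 in PMCAO at 24 h, 5 on both arrays, with a median log2 ratio of -0.48 and sums of 19780 (saline) and 9740 (PACAP38), against 6820 and 7837 in sham. At 6 h 2 of 12 were above 1.5-fold, with sums of 8353 and 9806, against 5229 and 4639 in sham. In contrast, 0 of 10 microglial probes passed either threshold at 24 h. Their sums at 24 h were 23560 (saline) and 21980 (PACAP38), against 26840 and 29620 in sham. At 6 h 3 of 10 were below 0.75-fold (6.79% of all probes), with sums of 20420 and 18470, against 16680 and 16580 in sham. Of 10 T cell probes, 0 and 1 were detected in the PMCAO saline and PACAP38 pools of 24 h. Endothelial markers also moved, with 4 of 7 probes below 0.75-fold at 24 h, 3 on both arrays. These were *Cdh5* (0.387-fold and 0.479-fold) and *Pecam1* (0.647-fold), which encode junction proteins, and the fourth was *Cldn5* (0.739-fold). The endothelial sums were 12200 (saline) and 8331 (PACAP38), against 7173 and 8800 in sham. Of 9 oligodendrocyte probes 3 were below 0.75-fold, 1 of them, for *Mobp* (0.577-fold), on both arrays, with sums of 179200 and 133200, against 161400 and 156400 in sham. Below 0.75-fold were also 1 of 11 astrocyte, 2 of 6 choroid plexus, 0 of 7 erythrocyte and 0 of 14 neuronal probes, against 8.18% of all probes. Of these lists, 0 had a probe above 1.5-fold. The part of any of these cells in the chemokine values was not tested.

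**Figure D4:**
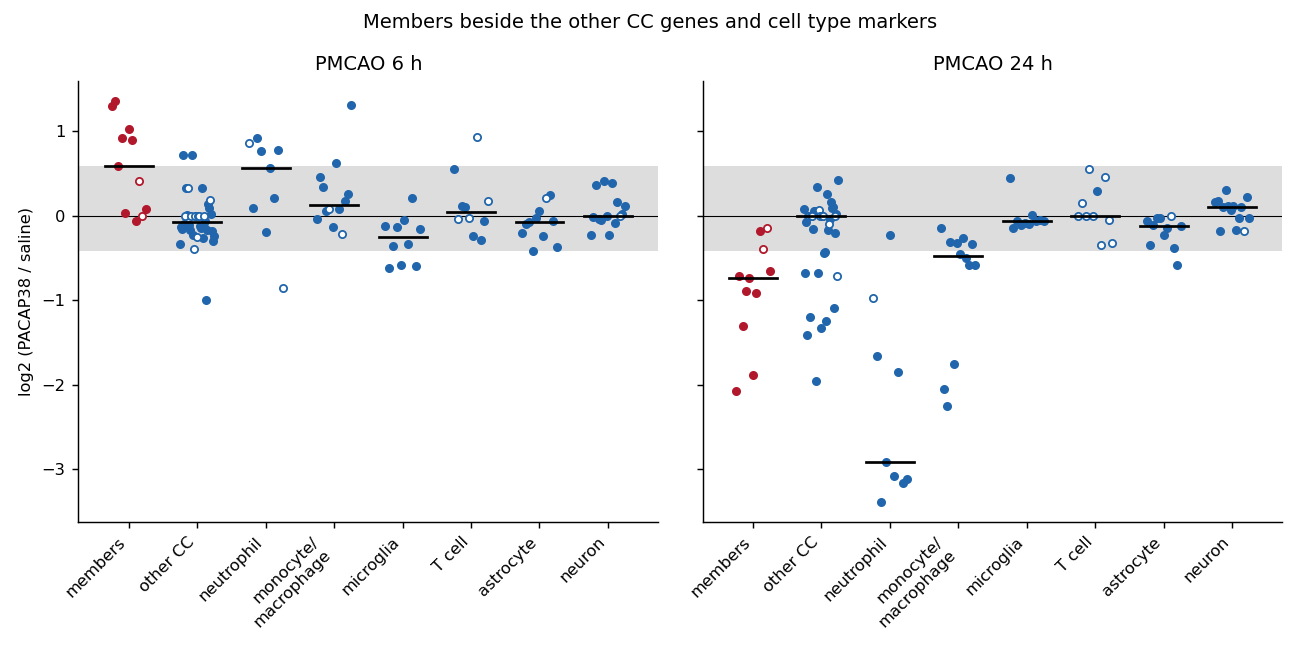
Log2 of PACAP38 over saline (y axis) for each probe of the members (red), of the other CC genes and of cell type marker lists (blue) in PMCAO at 6 h and 24 h. Bars are list medians, open symbols probes with no detected channel, and the grey band runs from 0.75-fold to 1.5-fold. At 24 h the member median of -0.73 lies between the neutrophil median of -2.91 and the microglial median of -0.06.

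The other CC chemokines, receptors and decoy receptors on the array, 27 genes with 36 probes, were less uniform. In PMCAO at 24 h 11 of 36 were below 0.75-fold with PACAP38 (8.18% of all probes), 8 on both arrays (3.75%), and 0 above 1.5-fold (2.99%). Those on both arrays and detected in the brighter pool were *Ccl11* (0.257-fold, detected with PACAP38 on 1 of 2 arrays), *Ccl9* (0.377-fold), *Ccl6* (0.421-fold), *Ccrl2* (0.437-fold and 0.468-fold), *Ccl21c* (0.625-fold) and *Ccr7*, which was at least 1.36-fold lower. *Ccl11* attracts eosinophils, and *Ccl6* and *Ccl9* encode ligands for the receptor of *Ccr1*. At 6 h 2 of 36 were above 1.5-fold, near the 5.36% of all probes, and 0 on both arrays (1.14% of all). *Ccbp2*, a decoy receptor, was below 0.75-fold on both, with log2 ratios of -1.15 and -0.85. The median over the 36 probes was -0.08 at 6 h and 0 at 24 h. It includes undetected probes with a ratio of exactly 0, such as both *Ccr4* probes and *Ccr8*.

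Part of this wider list was higher after PMCAO. Above 1.5-fold over sham were 15 of 35 probes with saline at 6 h (21.2% of all probes), 11 of 35 with PACAP38 at 6 h (17.6%), 14 of 36 with saline at 24 h (8.46%) and 9 of 36 with PACAP38 at 24 h (5.59%). Some of them were not detected in either pool, namely *Ccr7*, *Ccr10* and *Ccr3* with saline at 6 h and *Ccl22* with saline at 24 h. Below 0.75-fold were 2, 4, 6 and 6 probes in the same order (27.2%, 23.8%, 14.6% and 10.3% of all). *Ccl17*, a T cell attractant, was 3.47-fold to 4.63-fold, the probe of *Ccl24* detected in every pool 3.14-fold to 4.30-fold, and *Ccl9* 2.11-fold to 8.22-fold in the 4 pairs. *Ccl6* reached 5.72-fold (saline) and 2.20-fold (PACAP38) at 24 h, and *Ccl11* was at least 5.86-fold higher with saline at 24 h. With PACAP38 at 24 h the *Ccl11* PMCAO pool was detected on 1 of 2 arrays and its sham pool on 0, so no limit is given. *Ccl8* was at 0.436-fold and 0.368-fold at 24 h, although its gene lies in the same cluster as *Ccl2*, *Ccl7* and *Ccl12*, and *Ccl27* was at 0.703-fold and 0.710-fold.

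Over the 8 pools, with the mean of each time subtracted, the genes whose levels ran most like those of *Ccl2* were *Angptl4*, *4631416L12Rik*, *Socs3*, *Maff* and *Pmfbp1*, with Pearson r from 0.991 to 0.995 among 21139 probes detected in 12 or more of the 16 channels. *Socs3* is a feedback inhibitor of cytokine signalling and *Maff* a small transcription factor of stress responses. For the brighter *Ccr2* probe they were *Mcmdc1*, *Dock8*, *Cflar*, *Nktr* and *Cd55* (r from 0.944 to 0.969), a ranking that rests in part on the sham 6 h array on which *Ccr2* read 6.09 and 6.11. These are descriptions over 8 pools that share arrays in pairs.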

How the data were processed

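RNA of pooled hemispheres was hybridized to 8 two-color arrays. The authors scanned them with Feature Extraction (the headers give 9.5.1.1 for the 6 h and 9.5.3.1 for the 24 h arrays) and deposited a log10 ratio of Cy5 over Cy3 per spot, background-subtracted and dye-normalized by that software, and intensity columns with raw, background and processed signals. The authors also deposited a table of ratio values, in which arrays with PACAP38 in Cy3 hold scores, the ratio with a minus sign. For 3 arrays of 24 h a second identical file was present and not used.

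For PACAP38 over saline, log10 ratios were converted to log2, turned so that PACAP38 was on top, outlier spots left out, spots averaged per probe and the 2 arrays averaged. The study's cut-offs were used, with upregulation meaning more than 1.5-fold and downregulation less than 0.75-fold. PMCAO over sham was the difference of channels with the same dye, after loess and Aquantile (limma 3.58.1, R 4.3.3), averaged over dyes. Over the 4 pairs of pools limma tested the mean and 24 h minus 6 h, with Benjamini-Hochberg adjustment at 0.05 over all probes. The script was tested on simulated data. The labels number the 2 arrays of a comparison as separate pools, the methods describe 1 RNA labeled both ways, and this was followed.

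The number of arrays and pools limits the precision. Named were all member probes, the other CC genes past a threshold on both arrays and the 5 genes most like *Ccl2* and *Ccr2*, and for genes with several probes the brightest came first. The members, lists and tests were chosen with earlier results of these data known. Alternatives were normexp with loess, 75th percentile scaling, the deposited table, kept outliers, filters on dim probes, single arrays or dyes and left-out pools. Using Cy3 or Cy5 channels alone in the tests was chosen after seeing the data. Tables and plots were made with Python 3.11.15, numpy 2.4.6, pandas 2.3.3 and matplotlib 3.10.9. Exon annotation was not used here.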

Additional observations from a re-analysis of the deposited data

Results flagged for a closer look

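The difference between PMCAO and sham was larger at 24 h than at 6 h for *Ccl12*, by 2.03 on the log2 scale, and for *Ccl2*, by 1.62, in the limma test of the difference between the times (adjusted p = 0.0177 and 0.0273). Both calls were lost when saline and PACAP38 values were read from separate arrays or a pair of pools was left out.

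Several members moved one way with PACAP38 on both arrays of PMCAO at 6 h and the opposite way on both arrays at 24 h. The log2 ratio at 24 h minus that at 6 h was -3.38 for *Ccl3*, -2.92 for *Ccl4*, -1.89 for *Ccl2* and -1.80 for each *Ccl7* probe. The brighter *Ccr2* probe gave -2.07, but its saline pool of 6 h was detected on 0 of 2 arrays, so this is no measured size. Each time was 1 pair of pools, so the difference within PMCAO was not tested, and time cannot be told apart from slide and scanner.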

How the results depend on the processing

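No paired analysis was possible because the replicate numbers name the dye orientation of the same RNA and pair no mice. With normexp correction the member probes above 1.5-fold numbered 0 in place of 2 (PACAP38 over saline, sham 6 h), 2 in place of 6 (PMCAO 6 h) and 0 in place of 1 (sham 24 h), and 4 in place of 8 for PMCAO over sham with saline at 6 h. Those below 0.75-fold numbered 0 in place of 2 (sham 6 h), 1 in place of 2 (sham 24 h) and, for PMCAO over sham, 0 in place of 1 with saline at 6 h and with PACAP38 at 24 h. Loess with Aquantile left 0 of 1 above in sham at 24 h, and 1.5-fold either way 1 of 2 below. The filter on dim probes left 0 of 2 below in sham at 6 h and 0 of 1 above in sham at 24 h, and 1 value per gene left 1 above and 0 below in sham at 6 h. A single array gave 1 to 2 probes above and 1 to 2 below in sham at 6 h, 0 to 1 and 1 to 2 in sham at 24 h, and 0 to 1 below in the 4 pairs of PMCAO and sham. In sham at 6 h the log2 ratio of the second *Ccl5* probe changed from -0.64 to 0.0058 under normexp, and that of *Ccr2*, -0.59 in the mean, ran from -1.19 to 0.0026 over single arrays. The cause was not tested. No other called member changed sign. For PMCAO over sham at 24 h minus 6 h, normexp gave 6140 probes higher in place of 3992, 75th percentile scaling 7354 lower in place of 4677, and single dyes or left-out pools 0. There *Ccr1* passed under 75th percentile scaling (-0.94, limma adjusted p = 0.0466) and the brighter *Ccr2* probe under normexp (0.39, 0.0242), detected in 0 and 8 of 16 channels. Over all probes, PACAP38 calls of 720 to 2195 higher and 1593 to 3367 lower became 7 to 66 and 70 to 1160 under normexp (56 and 1160 in PMCAO at 24 h), 73 to 1254 and 392 to 1949 under the filter and up to 4317 and 5365 on single arrays. PMCAO calls of 2301 to 8588 and 4246 to 11003 became 451 to 3257 and 623 to 5523 under normexp. Signal over background limits *Ccr1*, *Ccr2* and the sham values of *Ccl7*.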
